A study of Mus musculus with 5 samples.

Results

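The 10 genes described here encode the main inducible and constitutive heat shock chaperones of the cytosol and mitochondria, together with their transcription factor Hsf1. They were taken by gene symbol from the deposited table of 47729 genes, and all 10 were present once and passed the filter on low counts. RNA was sequenced from dermal group 2 innate lymphoid cells (dILC2s), lymphocytes of the skin that secrete type 2 cytokines without an antigen receptor. The cells were sorted from the skin of female C57BL/6 mice aged 8 to 13 weeks and used without ex vivo stimulation. WT mice gave 3 pools of 10 mice each, numbered 5, 6 and 13. Rag1-/- mice, which lack the recombinase that assembles antigen receptors and hence mature T and B cells in every tissue, gave 2 pools of 9 mice each by the study's methods, numbered 2 and 7. For Rag1-/- the labels give 16 mice in all, and the methods 18. The labels also name the cell type of the Rag1-/- samples as type 3, while the titles, the protocols and the study describe the same dILC2 sort for both genotypes. The pools are the replicates, so each value is an average over many mice and the spread between mice was not measured.

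Chaperones bind unfolded protein and use ATP to let it fold. HSP70 proteins are loaded by J-domain partners such as DNAJB1 and reset by exchange factors such as HSPH1, HSP90 proteins finish kinases and receptors, and HSPD1 with its lid HSPE1 forms the folding chamber of mitochondria. HSF1 is held inactive by chaperones in unstressed cells, and on heat or other protein stress it binds heat shock elements, inverted repeats of the letters GAA and TTC, in front of chaperone genes. Skin cells are known to switch on part of this programme during enzymatic digestion and sorting, as they do immediate early genes such as Fos and Egr1.

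The promoter sequences are shown because they set the inducible pair Hspa1a and Hspa1b, whose reads are hard to tell apart, beside the shared control region of Hspe1 and Hspd1. Of the 10 genes, 6 had an entry among the RefSeq promoters of GRCm38.p6: Hspa1a, Hspa1b, Hsph1, Dnajb1, Hspe1 and Hspd1. Runs are written 5′ to 3′ on the strand of the gene, and capitals mark heat shock elements of 2 or more units, spelled GAANNTTC or TTCNNGAA. The Hspa1a run is chr17:34972157-34972356 and the Hspa1b run chr17:34959239-34959438, both on the minus strand and both the 200 bases before the start of transcription. The Hspe1 run is chr1:55088053-55088082 on the plus strand, 95 to 66 bases before the start, and the Hsph1 run is chr5:149636351-149636380 on the minus strand, 44 to 15 bases before the first of its 2 annotated starts.
Hspa1a: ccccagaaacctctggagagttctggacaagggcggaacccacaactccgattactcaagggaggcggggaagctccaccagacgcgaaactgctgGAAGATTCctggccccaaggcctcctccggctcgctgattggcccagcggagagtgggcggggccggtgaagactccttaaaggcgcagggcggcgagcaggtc
Hspa1b: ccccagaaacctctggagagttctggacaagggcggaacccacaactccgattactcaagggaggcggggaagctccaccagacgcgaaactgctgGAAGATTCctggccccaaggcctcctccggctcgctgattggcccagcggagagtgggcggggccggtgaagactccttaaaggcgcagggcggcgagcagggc
Hspe1: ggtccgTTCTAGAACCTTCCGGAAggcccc
Hsph1: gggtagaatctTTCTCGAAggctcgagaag

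In the printed runs Hspa1a and Hspa1b differed at 1 base, T199G, with the Hspa1a base first and positions counted from 1 at the 5′ end, and over the full 250 bases before the start they differed at 3. Each held 1 element of 2 units, 104 bases before the start. The Hspe1 run held 18 bases in capitals that form 4 alternating units. The same stretch lies 144 bases before the second annotated start of Hspd1, which is read from the opposite strand. A stricter spelling with 3 units, GAANNTTCNNGAA or TTCNNGAANNTTC, was found in the 300-base windows of 3 of the 6 genes, Hspe1, Hspd1 and Hsph1, and in 0.603% of 32851 annotated promoters. In Hsph1 this match began 37 bases after the first annotated start. The spelling with 2 units was found in 5 of the 6 genes, all but Dnajb1, and in 15.1% of all promoters. Both spellings cover both strands because their reverse complements are included, and the matches overlap each other. A match describes letters in the window and not the binding of HSF1, which was not measured.

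Total counts were 38796193, 39477243 and 32939428 in the WT pools, 8050562 in Rag1-/- pool 2 and 38922750 in Rag1-/- pool 7. Levels are given as CPM, the count of a gene divided by the library's total count and multiplied by 1000000. Rag1 transcripts did not check the genotype, because they were counted 4, 0 and 5 times in the WT pools and 5 and 48 times in Rag1-/- pools 2 and 7, and the deleted part of the gene is not given in the sources used here. In the libraries labelled Rag1-/- leukocyte genes took a larger share of the counts. The 29 measured leukocyte genes summed to 1096 to 2677 CPM in WT and 7831 to 8948 CPM in Rag1-/-, and the 18 ILC2 markers summed to 1538 to 2942 against 5364 to 7718 CPM, with none at 0 in every library. The 24 keratinocyte markers summed to 34594 to 50414 CPM in WT, 8816 in pool 2 and 20378 in pool 7. Krt5, a keratin of basal epidermis, was at 6091, 5067 and 5019 CPM in WT and 1632 and 2731 in Rag1-/-, and Krt14, its partner, fell short of the threshold as well (log2 fold change −1.15, SE 0.33, edgeR Benjamini-Hochberg adjusted p = 0.0840, against −1.26, SE 0.33, adjusted p = 0.0666 for Krt5). Dsg3, a desmosomal cadherin of keratinocytes, fell by 1.87 on the log2 scale (SE 0.20, edgeR adjusted p = 0.0306), and Ptprc, which encodes CD45, was higher by 1.63 (SE 0.51, adjusted p = 0.103). T cell markers summed to 80.9 to 171 CPM in WT and 465 to 518 in Rag1-/-. Of the 14 tested, 5 were called higher and 0 lower, beside 5.74% of all genes called in either direction. The log2 fold change was positive for 12 of them and negative for 2. Rag1-/- mice lack mature T cells, and the source of these transcripts in their pools was not tested. ILC3, ILC1 and NK markers summed to 182 to 234 CPM in WT and 401 to 466 in Rag1-/-. In the same order myeloid markers summed to 804 to 1432 and 1105 to 1490. Fibroblast markers summed to 7741 to 13708 and 8915 to 9097, and endothelial markers to 463 to 799 and 235 to 491. In such bulk libraries fewer cells of a type and less RNA per cell cannot be told apart, and the part of these differences in the chaperone values was not tested. In all 5 libraries the keratinocyte markers and the fibroblast markers each summed higher than the ILC2 markers. The chaperone values are thus those of the whole sorted material and not of dILC2s alone.

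Together the 10 genes took 0.354% ± 0.0098 of all counts in WT (SD, n = 3), 0.457% in Rag1-/- pool 2 and 0.376% in Rag1-/- pool 7. Every gene was well covered, with 301 to 75938 counts per library. Levels in the WT pools are given next per kilobase of transcript, at the transcript lengths of the deposited table. Those are 2263 bases for Dnajb1, 3140 for Hsph1 and 2018 for Hsf1. The annotation used for shared sequence gives 2996, 3802 and 2104. At the longer lengths these genes would stand lower, so their places in the order are uncertain. The order is also uncertain where genes share sequence. Only 25.2% of the 50-base windows of Hspa8, 33.7% of Hspa1a and 37.7% of Hspa1b occur in no other annotated gene. The share is 95.5% for Hsp90ab1 and 99.6% for Dnajb1. Hsp90ab1, the constitutive cytosolic HSP90, was highest at a mean of 691 CPM per kilobase, followed by Hspa1b at 199, Dnajb1 at 140, the constitutive HSP70 gene Hspa8 at 122, and Hspa1a at 67.7. At the deposited lengths the ranges over the WT pools of these 5 did not touch. Hsph1 (43.6), Hsp90aa1 (39.9) and Hspe1 (36.6) followed, with Hsph1 overlapping Hsp90aa1 and Hsp90aa1 overlapping Hspe1. Hspd1 (31.0) and Hsf1 (26.6) were lowest and overlapped each other. The coefficient of variation of CPM among the WT pools was 2.37% (Hspa1a) to 14.6% (Hsf1) over the 10 genes, with a median of 5.69%.

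No gene of the 10 passed the thresholds of the genotype comparison. The question was whether the heat shock chaperones differ between the libraries of dILC2s sorted from Rag1-/- and WT mice. A gene was called at an edgeR Benjamini-Hochberg adjusted p under 0.05 with a log2 fold change beyond 1. Of the 10 genes 0 were called, against 5.74% of the 19011 genes tested. DESeq2 also called 0, against 14.8% of genes. On the adjusted p alone edgeR passed 0 of the 10 (6.28% of all genes) and DESeq2 passed 1, Hspa8 (19.7%). At an unadjusted p under 0.05 stood 2 genes, Hspa8 and Hspe1, where 26.4% of all genes stood. The log2 fold change (Rag1-/- minus WT) was positive for 9 genes and negative for Dnajb1, with a median of 0.23 beside 0.02 over all genes tested. In 4 genes, Hspa1a, Hspa8, Hsp90ab1 and Hspe1, both Rag1-/- pools lay above every WT pool, a pattern that 21.9% of all genes showed. In 0 both lay below, where the background was 24%, and in 6 the groups overlapped. With any WT pool or Rag1-/- pool 2 left out the fit called 0 genes in the whole table, and without Rag1-/- pool 7 it called 12.1%.

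**Figure D1:**
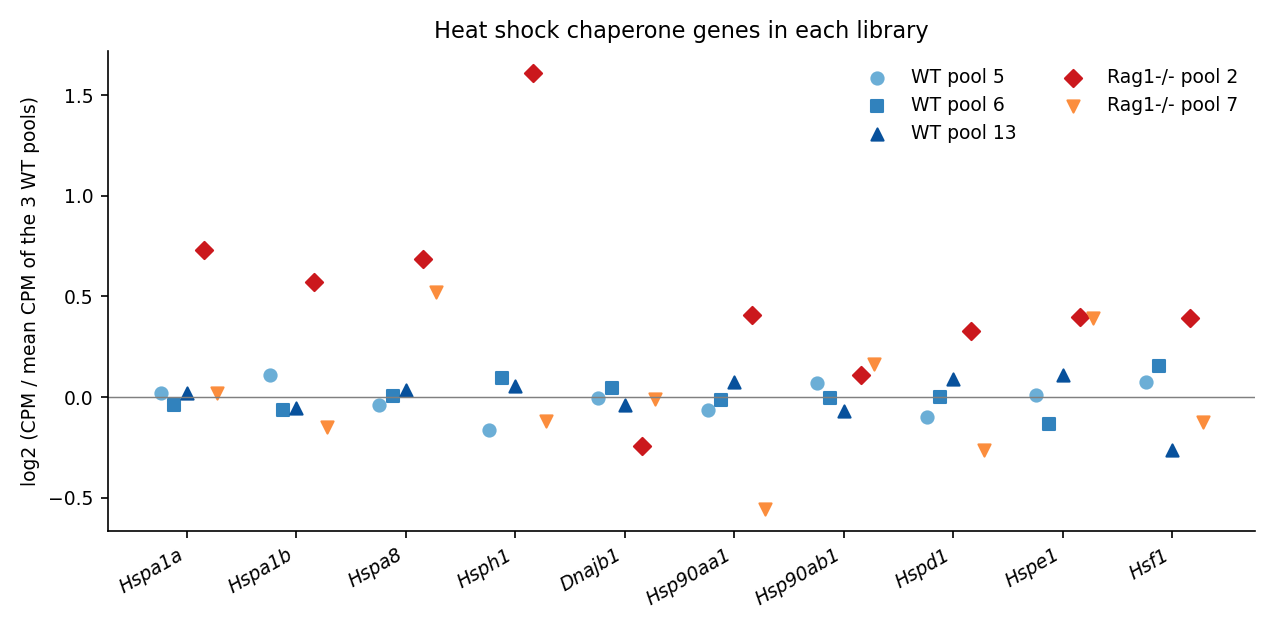
Level of each gene in each library as log2 of its CPM over the mean CPM of the 3 WT pools (y axis), with 1 point per pool and no error bar. Rag1-/- pool 2 (diamonds) lies above every WT pool for 9 genes and reaches 3.06 times the WT mean for Hsph1, while Rag1-/- pool 7 (orange triangles) lies above every WT pool for 4 genes.

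Hspa8 (ENSMUSG00000015656, GRCm38 chr9:40800984-40805200), the HSP70 that every cell uses, had the smallest p of the 10 genes. It was at 285, 294 and 300 CPM in the WT pools and at 472 and 421 CPM in Rag1-/- pools 2 and 7. The groups did not overlap, and the lower Rag1-/- pool was 1.44 times the WT mean. The log2 fold change was 0.64 (SE 0.19, 95% interval 0.20 to 1.08, edgeR unadjusted p = 0.0111, adjusted p = 0.0885). DESeq2 gave 0.60 with an adjusted p = 0.0226, past that threshold and under the fold threshold. Without Rag1-/- pool 2 the value was 0.59, and without pool 7 it was 0.63. Of the 50-base windows of the Hspa8 transcript, 74.8% occur in transcripts of other annotated genes, and the one sharing most, Gm15459, had 0 counts in all 5 libraries. How reads that match several places were counted is not given in the sources used here.

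The stress-inducible HSP70 genes behaved differently in the 2 Rag1-/- pools. Hspa1a (ENSMUSG00000091971, chr17:34969190-34972156) was at 204, 195 and 203 CPM in WT, 333 in pool 2 and 204 in pool 7. Hspa1b (ENSMUSG00000090877, chr17:34956436-34959238), its neighbour with a nearly identical protein, was at 603, 534 and 537 CPM in WT, 830 in pool 2 and 503 in pool 7. Pool 2 was above all WT pools for both. Pool 7 was only just above the WT range for Hspa1a (204.02 against at most 203.68 CPM) and below it for Hspa1b. The log2 fold changes were 0.44 for Hspa1a (SE 0.24, 95% interval −0.11 to 1.00, edgeR adjusted p = 0.283) and 0.28 for Hspa1b (SE 0.26, −0.32 to 0.88, adjusted p = 0.541). Without pool 2 these values were 0.09 and −0.08, and without pool 7 they were 0.67 and 0.51. The pair shares 1716 of its 50-base windows, 62.3% of the Hspa1b transcript, so the split of reads between them is uncertain. Summed, the pair was at 807, 730 and 741 CPM in WT and 1163 and 707 CPM in Rag1-/-, with a log2 fold change of 0.33 (SE 0.26, edgeR adjusted p = 0.477). The sum places pool 2 above and pool 7 below every WT pool.

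Hsph1 (ENSMUSG00000029657, chr5:149614287-149636376), the HSP110 exchange factor of HSP70, showed the widest gap between the Rag1-/- pools. It was at 122, 146 and 142 CPM in WT, 419 CPM in Rag1-/- pool 2 and 126 CPM in Rag1-/- pool 7. Pool 2 was at 3.06 times the WT mean and pool 7 at 0.919 times, inside the WT range. The log2 fold change was 1.00 (SE 0.43, 95% interval −0.01 to 2.02, edgeR adjusted p = 0.193), and it rested on pool 2. Without pool 2 it was −0.05 (adjusted p = 0.894), and without pool 7 it was 1.55 (adjusted p = 0.0132), past both thresholds. With no filter on low counts Hsph1 passed the p threshold and stayed under the fold threshold (0.90, edgeR adjusted p = 0.0460). No 50-base window of Hsph1 occurs in another annotated gene, so read sharing does not enter this value.

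Dnajb1 (ENSMUSG00000005483, chr8:83608175-83611902), the J-domain partner induced with HSP70 by heat, did not follow Hsph1 in pool 2. It was at 317, 328 and 309 CPM in WT, 268 in pool 2 and 315 in pool 7. Pool 2 was the lowest library and pool 7 lay inside the WT range. The log2 fold change was −0.09 (SE 0.20, 95% interval −0.56 to 0.38, edgeR adjusted p = 0.831).

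The cytosolic HSP90 genes split. Hsp90aa1 (ENSMUSG00000021270, chr12:110690605-110702728), the inducible form, was at 125, 129 and 138 CPM in WT, 174 in pool 2 and 89.0 in pool 7. The Rag1-/- pools thus lay on opposite sides of the WT range, and the log2 fold change was 0.02 (SE 0.28, 95% interval −0.63 to 0.68, edgeR adjusted p = 0.970). Its sign turned in 8 of 14 alternative settings, so it has no direction here. Hsp90ab1 (ENSMUSG00000023944, chr17:45567775-45573271), the constitutive form, was at 1829, 1737 and 1661 CPM in WT and 1877 and 1951 CPM in Rag1-/-. Both Rag1-/- pools were above the highest WT pool, by less than the WT pools differed among themselves, and the log2 fold change was 0.17 (SE 0.22, 95% interval −0.36 to 0.70, edgeR adjusted p = 0.691). Of the Hsp90aa1 windows 58.5% occur in transcripts of other genes, against 4.49% of the Hsp90ab1 windows.

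The mitochondrial pair, which shares the region with the printed 4-unit element, lay above every WT pool in Rag1-/- pool 2. In Rag1-/- pool 7 Hspe1 was above the WT pools and Hspd1 below them. Hspe1 (ENSMUSG00000073676, chr1:55088132-55091307) was at 28.6, 25.8 and 30.6 CPM in WT and at 37.4 and 37.3 CPM in Rag1-/- pools 2 and 7. The Rag1-/- pools nearly coincided and lay above WT, with a log2 fold change of 0.43 (SE 0.18, 95% interval 0.00 to 0.86, edgeR unadjusted p = 0.0491, adjusted p = 0.187). Hspd1 (ENSMUSG00000025980, chr1:55077835-55088243) was at 70.2, 75.1 and 80.0 CPM in WT, 94.3 in pool 2 and 62.7 in pool 7, again on opposite sides of WT. Its log2 fold change was 0.09 (SE 0.22, 95% interval −0.42 to 0.59, edgeR adjusted p = 0.846). The 2 genes overlap by 112 bases on opposite strands and the library kit does not mark strand, so reads there cannot be told apart. Of the windows of each gene 44.8% occur in transcripts of other genes.

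Hsf1 (ENSMUSG00000022556, chr15:76477445-76500972), the factor that drives the heat shock response and is itself controlled mainly at the protein level, was at 56.4, 59.7 and 44.7 CPM in WT, 70.3 in pool 2 and 49.1 in pool 7. It varied most among the WT pools, and pool 7 lay inside their range. The log2 fold change was 0.18 (SE 0.23, 95% interval −0.36 to 0.72, edgeR adjusted p = 0.681).

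**Figure D2:**
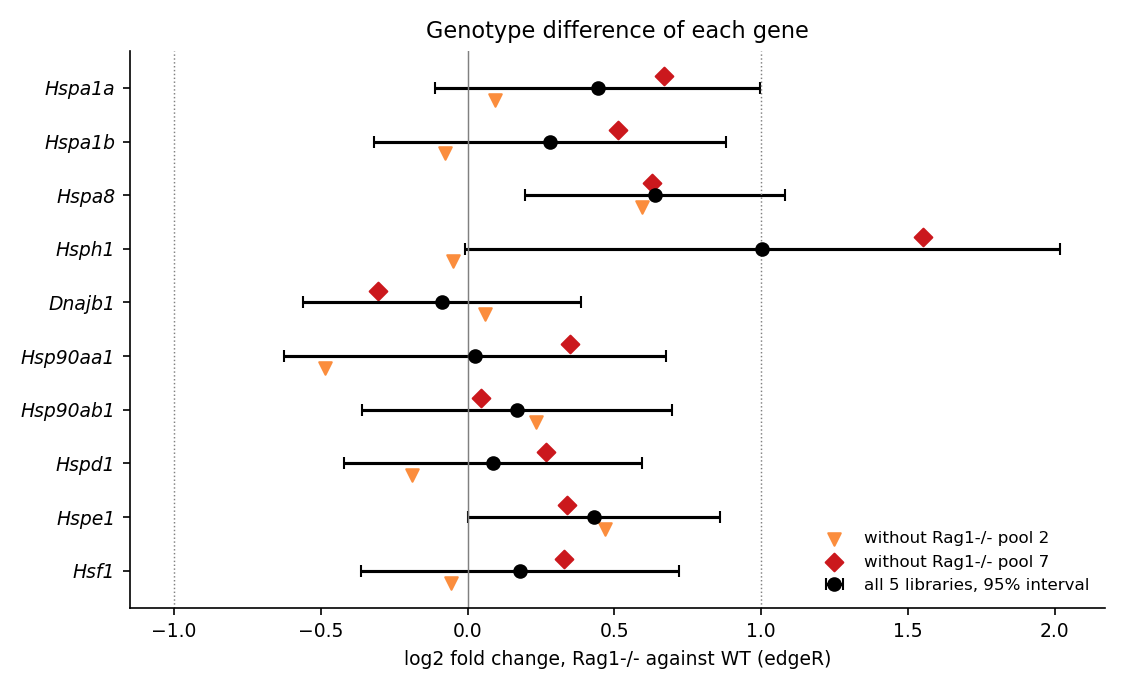
Log2 fold change of each gene, Rag1-/- against WT, from edgeR (x axis), with circles and bars for all 5 libraries with the 95% interval, diamonds for the fit without Rag1-/- pool 7 and triangles for the fit without Rag1-/- pool 2. Dotted lines mark the fold threshold of 1 in either direction, and Hsph1 moves from 1.55 to −0.05 according to which Rag1-/- pool is left out, while Hspa8 stays at 0.59 to 0.63.

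The gap between the Rag1-/- pools was larger than counting error for most of the genes. The ratio of pool 2 to pool 7 in CPM was 3.33 for Hsph1 (exact 95% binomial interval 3.18 to 3.48), 1.95 for Hsp90aa1 (1.83 to 2.08), 1.65 for Hspa1b (1.60 to 1.69) and 1.63 for Hspa1a (1.56 to 1.71). It was 1.50 for Hspd1 and 1.43 for Hsf1, and 1.12 for Hspa8, 1.00 for Hspe1, 0.962 for Hsp90ab1 and 0.851 for Dnajb1. These intervals cover counting error alone and not the spread between pools. At least 1.4 times as high in pool 2 were 6 of the 10 genes, against 17.7% of the 7136 genes with a mean of at least 25 CPM, both limits being set with the values in view. A ratio as high as that of Hsph1 was reached by 18 of those genes, or 0.252%, and their median ratio was 0.971. Above every WT pool were 9 of the 10 genes in pool 2 (39.9% of all genes) and 4 in pool 7 (33.5%), and below every WT pool were 1 in pool 2, Dnajb1 (39.1% of all genes), and 3 in pool 7 (38.7%). Pool 2 was also the shallowest library and had the lowest keratinocyte sum, and the part of either in these ratios was not tested.

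Ratios of counts within a library do not depend on how libraries are scaled. They can still depend on which cells a library holds, and that part was not tested. The ratio of Dnajb1 to Hspa8 was 1.11, 1.12 and 1.03 in WT and 0.569 and 0.749 in Rag1-/- pools 2 and 7. Both Rag1-/- values were lower, by a mean difference of −0.73 on the log2 scale, with an exact two-sided permutation p = 0.1, the smallest that 3 against 2 libraries can give. The ratio of Hspa1a plus Hspa1b to Hspa8 was 2.83, 2.48 and 2.47 in WT and 2.46 and 1.68 in Rag1-/-, a mean difference of −0.35 (exact permutation p = 0.1). Pool 2 lay only just under the WT range here. Hspa1a to Hspa1b was 0.338, 0.366 and 0.379 against 0.401 and 0.405, a mean difference of 0.16 (exact permutation p = 0.2), with both Rag1-/- values just above the WT range. Hsph1 to Hspa8 was 0.428, 0.499 and 0.475 in WT, 0.888 in pool 2 and 0.299 in pool 7, a mean difference of 0.14 (exact permutation p = 0.8). Hsp90aa1 to Hsp90ab1 was 0.0685, 0.0745 and 0.0829 in WT, 0.0925 in pool 2 and 0.0456 in pool 7 (exact permutation p = 0.8), and Hspd1 to Hspe1 was 2.45, 2.91 and 2.61 in WT, 2.52 in pool 2 and 1.68 in pool 7 (exact permutation p = 0.2). Over the 6 ratios the Benjamini-Hochberg adjusted permutation p was 0.3 or 0.8, so none passed, and this design cannot pass at this size. For the ratios of Hsph1 to Hspa8 and of Hsp90aa1 to Hsp90ab1 the Rag1-/- pools lay on opposite sides of WT.

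**Figure D3:**
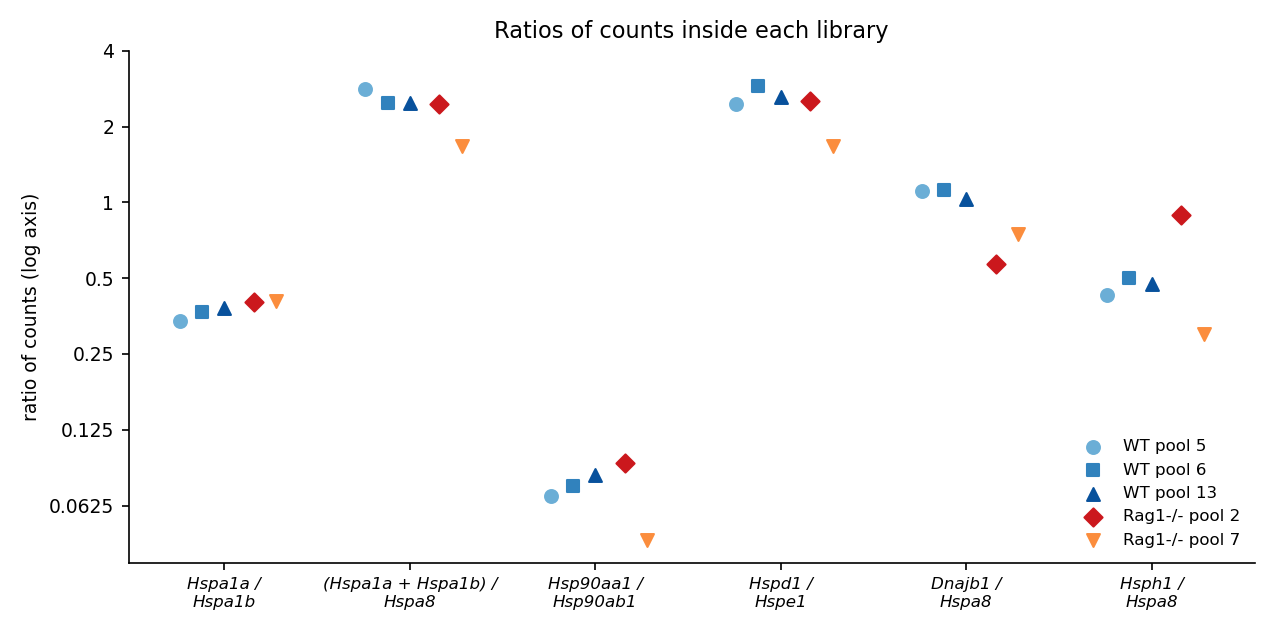
Ratio of the counts of 2 genes, or of the summed Hspa1a and Hspa1b to Hspa8, inside each library (y axis, log scale), with 1 point per pool. Dnajb1 to Hspa8 is below the WT pools in both Rag1-/- pools (0.569 and 0.749), while Hsph1 to Hspa8 is above WT in pool 2 (0.888) and below WT in pool 7 (0.299).

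Around the 10 genes, 9 lists of other chaperones, co-chaperones and heat shock factors held 93 genes, of which 91 were tested. By the same rule 4 of them rose and 2 fell, together 6.59% beside 5.74% of all genes, and their median log2 fold change was 0.15. The endoplasmic reticulum chaperones gave 2 of the 4 that rose. The log2 fold changes of all 15 genes of that list were above 0 (median 0.57, beside 0.02 over all genes tested). Pdia4, a disulfide isomerase of that compartment, was at 53.7, 59.8 and 55.8 CPM in WT and 134 and 117 in Rag1-/- (log2 fold change 1.19, SE 0.18, edgeR adjusted p = 0.0306). Sdf2l1, a partner of the endoplasmic reticulum HSP70, was at 9.05, 8.87 and 9.68 CPM in WT and 20.4 and 24.7 in Rag1-/- (1.33, SE 0.22, edgeR adjusted p = 0.0307). For both genes the lower Rag1-/- pool was far above the highest WT pool. Sums over the list were 3817 to 4388 CPM in WT and 5304 to 6419 CPM in Rag1-/-.

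Lists closer to the cytosolic response held few calls. Of 18 other stress-inducible genes 1 rose, Mthfd1l, a mitochondrial folate enzyme, from 16.1, 22.6 and 22.5 CPM in WT to 41.0 and 41.5 in Rag1-/- (1.05, SE 0.22, edgeR adjusted p = 0.0414). The list's median was 0.13. Of 11 other HSP70 family genes 1 fell, the divergent member Hspa12a, from 68.1, 63.0 and 54.5 CPM to 8.94 and 22.8 (−1.89, SE 0.40, edgeR adjusted p = 0.0429), and Hyou1, the HSP110 of the endoplasmic reticulum, stood at 0.60 (adjusted p = 0.0976). Of 17 HSP90 paralogs and co-chaperones 0 were called and the median was 0.40, with Cdc37, which brings kinases to HSP90, at 0.72 (edgeR adjusted p = 0.0800). Of 17 HSP70 partners 0 were called, with Dnajb4 at −0.84 (edgeR adjusted p = 0.0457, under the fold threshold) and Dnaja4 at 0.75 (adjusted p = 0.0507), and the median was 0.09. The polyubiquitin gene Ubb passed the p threshold alone at 0.87 (edgeR adjusted p = 0.0409).

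Of 7 tested small heat shock proteins 1 rose, the lens crystallin Cryaa, from 2.19, 1.80 and 1.79 CPM to 4.47 and 6.94 (1.62, SE 0.37, edgeR adjusted p = 0.0489), with as few as 36 counts in a library, and Hspb8 stood at −0.89 (adjusted p = 0.137). Of 12 mitochondrial genes 1 fell, Grpel2, an exchange factor of the mitochondrial HSP70, from 54.3, 56.0 and 40.3 CPM to 22.5 and 24.7 (−1.05, SE 0.23, edgeR adjusted p = 0.0457), and Clpx stood at −0.74 (adjusted p = 0.0625) with a list median of −0.04. All 8 subunits of the chaperonin CCT had small positive values, with a median of 0.16 beside 0.02 over all genes tested, and none was called. The list summed to 1736 to 1760 CPM in WT, 1676 in Rag1-/- pool 2 and 2163 in Rag1-/- pool 7, on opposite sides of WT. The smallest p values were those of Cct7 (0.29, edgeR adjusted p = 0.453) and Cct4 (0.25, adjusted p = 0.470). Without Rag1-/- pool 7 these log2 fold changes were −0.07 for Cct7 and 0.08 for Cct4. Of 3 tested genes among the other heat shock factors and their binding protein 0 were called, with Hsf2 at 0.37 (edgeR adjusted p = 0.346) and Hsbp1 at 0.27 (adjusted p = 0.549). Leukocyte and keratinocyte sums moved with genotype beside all of these lists, and their part was not tested. In the fits without a WT pool or without Rag1-/- pool 2 the log2 fold change was 1.13 to 1.24 for Pdia4 and 1.31 to 1.50 for Sdf2l1. It was 0.90 to 1.14 for Mthfd1l, 1.56 to 1.92 for Cryaa, −1.98 to −1.37 for Hspa12a and −1.20 to −0.95 for Grpel2. Mthfd1l and Grpel2 thus came under the fold threshold in some of these fits. In the fits without a WT pool none of these genes was called, the lowest edgeR adjusted p being 0.0694. Without Rag1-/- pool 7 the log2 fold change was 1.19 for Pdia4, 1.09 for Sdf2l1 and 0.95 for Mthfd1l. It was 1.15 for Cryaa, −2.85 for Hspa12a and −1.22 for Grpel2.

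Of 20 tested immediate early genes, which dissociation is known to raise, 0 rose and 1 fell, beside 5.74% of all genes called in either direction, and 6 had a positive log2 fold change. The 1 that fell was Egr1, at 1668, 1408 and 1322 CPM in WT and 525 and 715 in Rag1-/- (−1.20, SE 0.27, edgeR adjusted p = 0.0469). The list's median was −0.46, beside 0.02 over all genes tested. Ier5, which is known to promote HSF1 activity, was at 199, 190 and 205 CPM in WT and 323 and 355 in Rag1-/- (0.81, SE 0.19, edgeR adjusted p = 0.0505), short of the threshold. The list summed to 18418 to 22207 CPM in WT, 15767 in Rag1-/- pool 2 and 16143 in Rag1-/- pool 7. The keratinocyte sum was also lower in both Rag1-/- pools and lowest in pool 2, and the part of either in the chaperone values was not tested.

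**Figure D4:**
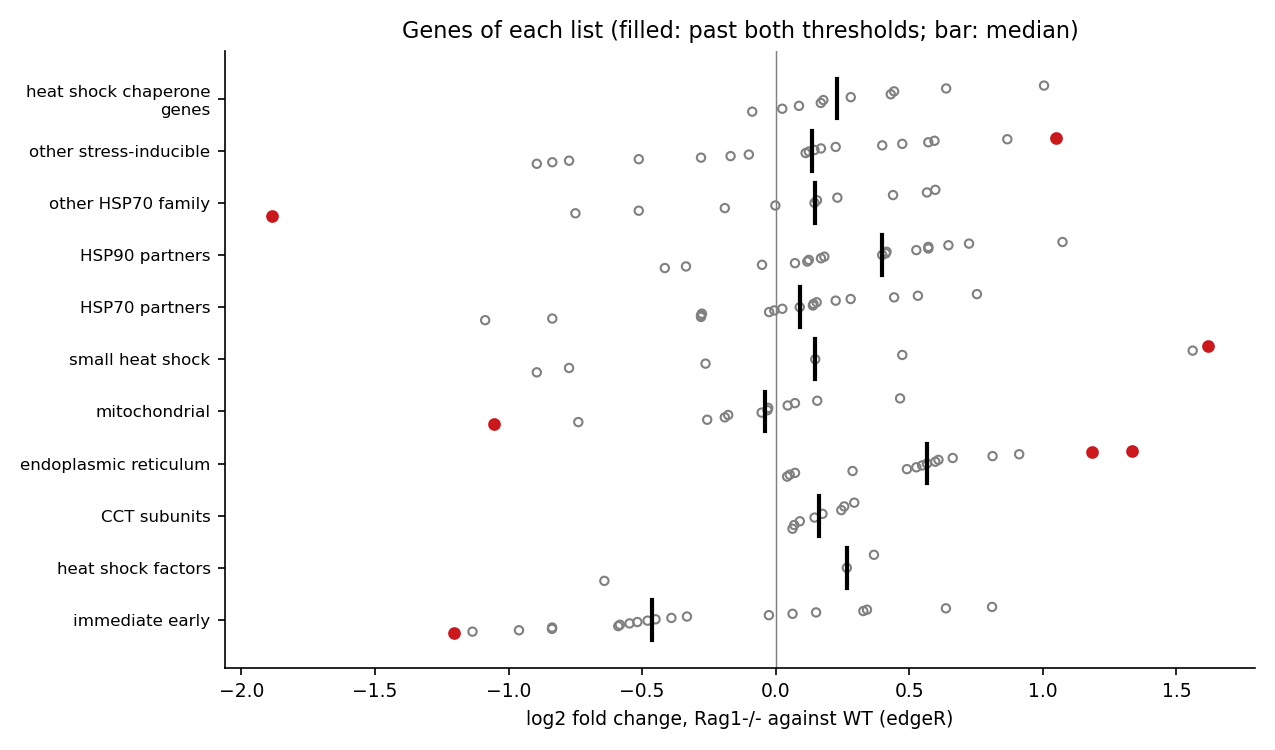
Log2 fold change of every tested gene, Rag1-/- against WT, from edgeR (x axis), by list, with filled points for genes past both thresholds, open points for the others and a vertical bar at each list's median. The heat shock chaperone genes have no filled point, and the endoplasmic reticulum list lies wholly above 0 with a median of 0.57 and 2 filled points.

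Other chaperones that matched the pattern of Rag1-/- pool 2 were few. At least 1.4 times pool 7 and above every WT pool were 6 of the 10 genes, 4 of 75 related genes with a mean of at least 25 CPM (5.33%), and 13.7% of all 7136 genes at that level. Both limits were set with the values of the 10 genes in view, so these shares cannot show that the pattern is particular to them. The 4, named after their values were seen, were Hspa4, an HSP110 exchange factor, Dnaja1, a J-domain partner, and Hspa5 and Hsp90b1, the HSP70 and HSP90 of the endoplasmic reticulum. Hspa4 was at 255, 282 and 268 CPM in WT, 344 in pool 2 and 239 in pool 7. Dnaja1 was at 138, 175 and 180 CPM in WT, 237 in pool 2 and 141 in pool 7. In both genes pool 7 was within or below the WT range, as it was for Hsph1. Hspa5 was at 1514, 1705 and 1756 CPM in WT, 2847 in pool 2 and 1974 in pool 7, so both Rag1-/- pools were above WT. Hsp90b1 was at 288, 321 and 334 CPM in WT, 571 in pool 2 and 320 in pool 7, with pool 7 inside the WT range.

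Scaled on the summed counts of the leukocyte genes in place of all genes, the median of all genes moved to −2.21 and 8 of the 10 genes were called lower, where 69.1% of all genes were. Relative to that median Hsph1 stood at 0.99, Hspa8 at 0.62, Hspe1 at 0.40, Hspa1a at 0.39, Hspa1b at 0.20, Hsp90ab1 and Hsf1 at 0.12, Hspd1 at 0.08, Hsp90aa1 at −0.01 and Dnajb1 at −0.11. The order of the 10 genes changed only for Hspe1 and Hspa1a. Before that median was taken off, the log2 fold change turned negative for the 9 genes that were positive on total counts, and Dnajb1 was negative on both scales. On that scale Pdia4 was at −1.04 and Sdf2l1 at −0.89, so the direction of every gene that rose above turned with it as well, Mthfd1l at −1.09 and Cryaa at −0.67 included.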

How the data were processed

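Dermal ILC2 RNA was sequenced by the authors as 50-base single reads from poly(A) libraries that do not mark strand. The submitters' processing notes name bcl2fastq 2.17.1.14, FastQC 0.11.5, STAR 2.5, featureCounts 1.5.0-p1 and DESeq2 1.8.2. Reads were aligned to GRCm38 and deposited as counts per gene. The deposited normalized signal, scaled per library by the authors, served only in the limma alternative. How reads with several matches were counted is not given in the sources used here.

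Counts were tested in R 4.3.3 with edgeR 4.0.16 (quasi-likelihood, filterByExpr, TMM) on all 5 libraries with genotype as the only factor, and adjusted by Benjamini-Hochberg over all 19011 genes that passed the filter. The thresholds were an adjusted p under 0.05 and a log2 fold change beyond 1. Alternatives were DESeq2 1.42.0, limma 3.58.1 on log2(signal + 1), other scalings, other filters, a robust fit and each library left out. The fit was tested on simulated data. CPM used total counts, and levels per kilobase used the transcript length in the deposited table. Shared 50-base windows came from GENCODE M21 transcripts. Positions are those of the deposited table, and promoters are from RefSeq. A count of 0 allows up to 3 counts, or 0.0760 to 0.373 CPM.

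All 10 genes are named. From each other list and the immediate early genes, every called gene is named (up to 5 by smallest p) and, with fewer than 2 called, the 2 with the smallest p. One gene that this rule names is not reported here. Of the markers, Ptprc, Krt5, Krt14 and Dsg3 are named, and the rest are summed. The 10 genes and the lists were chosen with earlier results of these data known. Nothing in the labels says that pools were prepared in batches.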

Additional observations from a re-analysis of the deposited data

How the results depend on the processing

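Of the 10 genes, Hspa8 (0.56 to 0.65), Hspe1 (0.34 to 0.48), Hspa1a (0.09 to 0.67) and Hsp90ab1 (0.05 to 0.23) stayed above 0 (log2 fold change) under every alternative but the leukocyte scaling, which reversed Hspa1a (−1.82), Hspa1b (−2.01), Hspa8 (−1.59), Hsp90aa1 (−2.22), Hsp90ab1 (−2.09), Hsph1 (−1.22), Hspe1 (−1.81), Hspd1 (−2.13) and Hsf1 (−2.09) and called Dnajb1 lower (−2.32). With a library left out, a fit changed the sign of 6 genes, each without Rag1-/- replicate 2, and the log2 fold change ranged from −0.077 to 0.51 for Hspa1b, −0.051 to 1.55 for Hsph1, −0.30 to 0.060 for Dnajb1, −0.19 to 0.27 for Hspd1, −0.055 to 0.33 for Hsf1 and −0.48 to 0.35 for Hsp90aa1. Hsp90aa1 also turned under DESeq2 (−0.022), RLE scaling (−0.0049), no filter (−0.066), a minimum of 10 counts in every library (−0.015), limma (−0.081) and without WT replicate 5 (−0.0091). With a library left out, the difference between genotypes (Rag1-/- minus WT) in the log2 ratio of Hsp90aa1 to Hsp90ab1 ranged from −0.72 to 0.30. For the ratio of Hsph1 to Hspa8 this difference ranged from −0.64 to 0.93. The number of the 10 genes called went from 0 to 8 under the leukocyte scaling and ranged from 0 to 1 with a library left out (Hsph1, without Rag1-/- replicate 7).

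Over all genes 1091 were called, with 2454 under DESeq2, 2645 with no filter, 13151 under the leukocyte scaling and 0 to 2409 with a library left out. The count was 0 in each fit without 1 of the WT pools and without Rag1-/- pool 2, where 3521 to 3874 and 5200 genes had an unadjusted p under 0.05. The 6 related genes called became 74 under the leukocyte scaling and 0 without Rag1-/- replicate 2, and the 1 immediate early gene became 2 under DESeq2 and 0 without Rag1-/- replicate 2. The cause of these shifts was not tested. A fit with 1 Rag1-/- pool assumes that it varies like the WT pools. No paired analysis was possible because the pool numbers of WT (5, 6, 13) and Rag1-/- (2, 7) share none. Rag1-/- pool 2, at 8050562 counts, gives the least precise values.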
